A study of Homo sapiens with 12 samples.

Results

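The response to chidamide was examined in the libraries labelled JeKo-1, across all genes of a table of read counts. The 6 libraries with that label, of 12 in the series, are those of cells given 4 µM chidamide for 12 h (3 libraries) and of cells given vehicle for 12 h (3 libraries). All are of unmodified cells as far as the labels say, and polyadenylated RNA was sequenced. The other 6 libraries carry the label Granta-519, a second established lymphoma line given the same dose or vehicle for the same time. They are used below to show where a response differed between the lines, and also entered the filter on low counts and the estimate of spread. JeKo-1 is an established mantle cell lymphoma line. A chromosomal translocation usually drives the cyclin gene CCND1 in that disease, and the line is known for CCND1 and for the transcription factor gene SOX11. The libraries labelled JeKo-1 held 2, 2 and 1 counts of CCND1 in vehicle and 18, 11 and 15 after chidamide, and 0 counts of SOX11 in all 6. The Granta-519 vehicle libraries held 2113 ± 42.9 CPM (counts per 1000000, with library sizes scaled by TMM) of CCND1 and 156 ± 7.52 CPM of SOX11 (mean ± SD, n = 3). General B-cell genes were present under the JeKo-1 label, with MS4A1, which encodes CD20, at 499 ± 25.9 CPM and PAX5, the B-cell identity factor, at 547 ± 22.7 CPM in vehicle (SD, n = 3). The label goes against 2 defining markers of the named line, so the libraries are called by their label throughout.

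Chidamide is a benzamide that inhibits class I histone deacetylases and HDAC10. These enzymes take acetyl groups off histone tails, often as the catalytic part of corepressor complexes, and acetylated histones mark open chromatin. Inhibitors of this class are known to raise many genes that are silent or weakly expressed in a cell and to lower part of the genes that are highly expressed, among them genes of growth. In B cells the programmes kept in check this way include receptors, cytokines and genes of other lineages.

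Gene calls were close to evenly split by number but not by size. Of 15087 genes tested, 66.4% changed (10016 genes), 35.3% rising (5320) and 31.1% falling (4696) by edgeR's quasi-likelihood test with Benjamini-Hochberg adjustment at 0.05. Rises of at least 2-fold were far more frequent than falls of that size, 17.1% of tested genes (2587) against 2.65% (400). In 35.2% of tested genes all 3 chidamide libraries lay above all 3 vehicle libraries, and in 31.4% below. The split depends on how library sizes are scaled: 53.1% of the calls were rises with TMM, 64.9% with upper-quartile scaling and 63.6% with library totals alone. Relative to TMM these scalings shifted the median log2 change of all tested genes, 0.04, upward by 0.146 and 0.131. No spike-in RNA was named and levels are relative within each library, and fewer cells of a type cannot be told apart from less RNA per cell. Whether the 3 libraries of a group are separate cultures is not said, and p-values rest on the spread between them, which can be technical only. Below, rose and fell are used only of genes past that threshold, ± after a CPM is the SD over 3 libraries, and ± after a log2 change is its SE. Counts of rises and falls in gene lists are to be read beside the shares of all tested genes, 35.3% and 31.1%. Those shares differ with level, as given next, and no list was matched for level. List members were chosen with earlier results of these data known, so a share is a description and no test of a function.

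The direction of a change differed with the level of the gene. Among genes with a mean of 100 to 300 CPM over the 6 libraries, 64.9% fell and 19.4% rose, and among those at 300 to 1000 CPM 65.2% fell and 17.8% rose. Below 1 CPM the picture turned, with 35.9% rising and 0.939% falling, and between 1 and 3 CPM 56.9% rose and 5.8% fell. The 94 genes above 1000 CPM were split, 41.5% rising and 35.1% falling. More genes were detected after the drug: 14439 to 15029 genes had a count in the vehicle libraries and 16889 to 17070 in the chidamide libraries, at totals of 12873642 to 15676405 and 13803254 to 16592694 counts. There were 749 genes with no count in vehicle and a count in every chidamide library, and 8 with the opposite pattern. Such genes entered the test through their counts after the drug or in Granta-519, so the test could find them only higher. For a gene with 0 counts in vehicle, the fold is given as a lower bound against 3 counts over the 3 libraries, and for 1 to 3 counts as a ratio with its exact counting interval. Both cover counting error only.

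**Figure D1:**
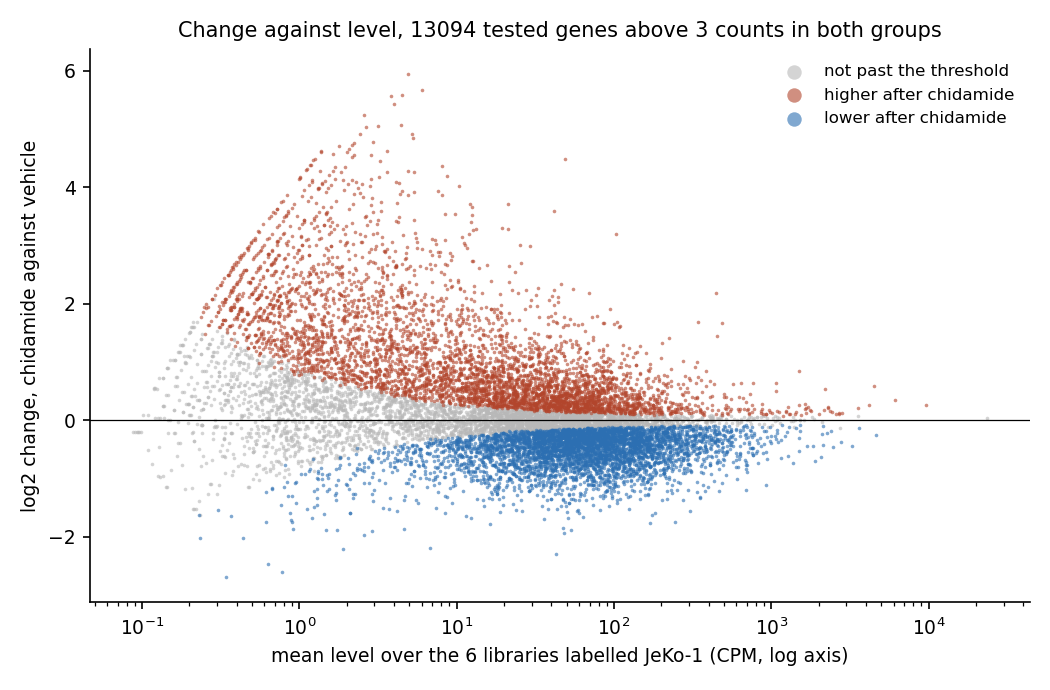
Log2 change after chidamide under the JeKo-1 label (vertical axis) against mean level in CPM (horizontal log axis) for 13094 tested genes with more than 3 counts in both groups; coloured points passed the test. Large rises crowd the left, where levels are low, and falls dominate between 100 and 1000 CPM.

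The chidamide libraries resembled each other more than the vehicle libraries did. The first principal component of log CPM held 81.4% of the variance and separated the treatments, and the second held 6.45% and set vehicle replicate 2 apart from vehicle replicate 3. The mean chi-square per gene was 1.67 to 2.03 between chidamide replicates and 3.12 to 5.63 between vehicle replicates, the higher values being those with vehicle replicate 2. Without that library 5195 genes rose and 4583 fell, so counts here do not rest on it. Every pair differed beyond sampling noise and no libraries were merged.

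Of the largest rises among genes reaching 10 CPM, the 6 described first are a formin, a Toll-like receptor, an adaptor, a cytokine, a somatostatin receptor and a neurexin gene, each under 3 CPM in every vehicle library. FMN1, a formin that nucleates actin filaments, was at 0.137, 0.225 and 0.331 CPM in the 3 vehicle libraries and at 11.6, 12.3 and 11.8 CPM in the 3 chidamide libraries. FMN1 thus rose 51.0-fold, with a log2 change of 5.67 ± 0.25 (edgeR's quasi-likelihood test, adjusted p = 5.04e-27). The size of a rise from so low a level varies with the method. With limma on log2(score + 0.01), the score being a deposited length-scaled form of the counts, FMN1 had a log2 change of 3.63. This alternative moved the fold of 31 of 212 named genes by over 1.5 times, and all 31 became smaller. TLR7, the endosomal receptor for single-stranded RNA, was at 0.751, 0.899 and 1.08 CPM in vehicle and at 20.3, 15.3 and 13.8 CPM after the drug, and rose 18.2-fold (log2 change 4.19 ± 0.19, edgeR adjusted p = 5.37e-26). SRCIN1, an adaptor that restrains the kinase SRC, went from 0.956, 1.65 and 0.993 CPM to 20.3, 18.7 and 19.7 CPM (log2 change 4.02 ± 0.19, edgeR adjusted p = 9.87e-26). All genes of this paragraph were taken only where the 2 groups do not overlap, so their separation was set by the choice. TNFSF15, a TNF-family cytokine, was at 1.78, 1.95 and 1.41 CPM and then at 21.1, 23.5 and 23.3 CPM (log2 change 3.71 ± 0.16, edgeR adjusted p = 2.08e-27). SSTR3, a somatostatin receptor, was at 1.09, 1.87 and 1.66 CPM and then at 18.7, 18.6 and 16.3 CPM (log2 change 3.54 ± 0.17, edgeR adjusted p = 4.64e-25). NRXN2, a presynaptic adhesion protein of neurons, was at 1.64, 1.42 and 2.48 CPM and then at 23.8, 22.2 and 23.9 CPM (log2 change 3.67 ± 0.15, edgeR adjusted p = 7.02e-29).

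Other large rises are given next. NABP1, a single-stranded DNA-binding protein, was at 20.5, 19.7 and 20.4 CPM in vehicle and at 192, 186 and 178 CPM after chidamide, a 9.19-fold rise (log2 change 3.20 ± 0.06, edgeR adjusted p = 1.54e-42). IER3, a stress-induced survival gene, rose from 2.02 ± 0.328 to 23.1 ± 1.53 CPM, and MAPK10, the kinase JNK3 that is otherwise mostly neuronal, from 2.42 ± 0.653 to 23.0 ± 2.42 CPM. MS4A7, a tetraspan relative of CD20 usually seen in myeloid cells, rose from 3.55 ± 0.439 to 35.2 ± 0.895 CPM, and CLEC17A, a lectin of germinal-centre B cells, from 3.94 ± 0.277 to 38.2 ± 2.26 CPM. TEX19, a germ-cell gene, rose from 2.13 ± 0.431 to 22.5 ± 1.07 CPM and PLEKHH2 from 0.660 ± 0.220 to 10.0 ± 1.01 CPM. HSPA7 went from 1.33 ± 0.165 to 15.5 ± 0.860 CPM, but it is nearly identical to other HSP70-family copies and its reads may be shared with them. The 20 largest rises were taken only from called genes whose groups were separate, so their separation is no finding. Their log2 changes ran from 3.20 to 5.67 (largest adjusted p by edgeR's quasi-likelihood test 6.40e-19).

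The largest falls were smaller than the largest rises. KCTD15, a BTB-domain protein of ubiquitin ligases, was at 71.7, 72.3 and 70.1 CPM in vehicle and at 14.2, 14.8 and 14.8 CPM after chidamide, a 4.89-fold fall (log2 change −2.29 ± 0.08, edgeR's quasi-likelihood test, adjusted p = 3.50e-31). ATAD3A, a mitochondrial inner-membrane ATPase that holds nucleoids in place, was at 353, 415 and 365 CPM and then at 114, 116 and 109 CPM (log2 change −1.74 ± 0.05, edgeR adjusted p = 9.87e-36). Its neighbouring copy ATAD3B fell from 262 ± 17.9 to 77.3 ± 1.00 CPM, and the 2 copies are alike enough that reads may be shared between them. CD81, a tetraspanin of the B-cell surface, was at 264, 279.9 and 249.5 CPM in vehicle and at 84.8, 88.7 and 83.1 CPM after the drug (log2 change −1.63 ± 0.05, edgeR adjusted p = 3.51e-34). MFNG, a glycosyltransferase that modifies Notch receptors, was at 264, 290.4 and 266 CPM and then at 90.3, 94.4 and 87.8 CPM (log2 change −1.59 ± 0.05, edgeR adjusted p = 1.40e-33). In both genes the groups do not overlap, which the choice of these falls required. SLC38A5, a glutamine transporter, fell from 90.1 ± 4.59 to 30.2 ± 2.52 CPM and NOXO1, an organizer of a superoxide-making oxidase, from 18.8 ± 2.33 to 5.84 ± 0.465 CPM. L3MBTL2, a subunit of a noncanonical polycomb complex, fell from 77.3 ± 4.46 to 24.3 ± 1.59 CPM, and DUS3L, a tRNA dihydrouridine synthase, from 86.9 ± 5.63 to 29.5 ± 2.15 CPM. LRPAP1, the chaperone of LDL-receptor-family proteins, fell from 75.1 ± 6.19 to 25.2 ± 1.48 CPM. CD3EAP, a subunit of RNA polymerase I now called POLR1G, fell from 17.4 ± 2.65 to 5.53 ± 0.703 CPM; it overlaps the repair gene ERCC1, and the strand setting of the counts is not given in the sources used here. The 20 largest falls were likewise taken only from called genes with separate groups. Their log2 changes ran from −2.29 to −1.56 (largest adjusted p by edgeR 1.64e-14).

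**Figure D2:**
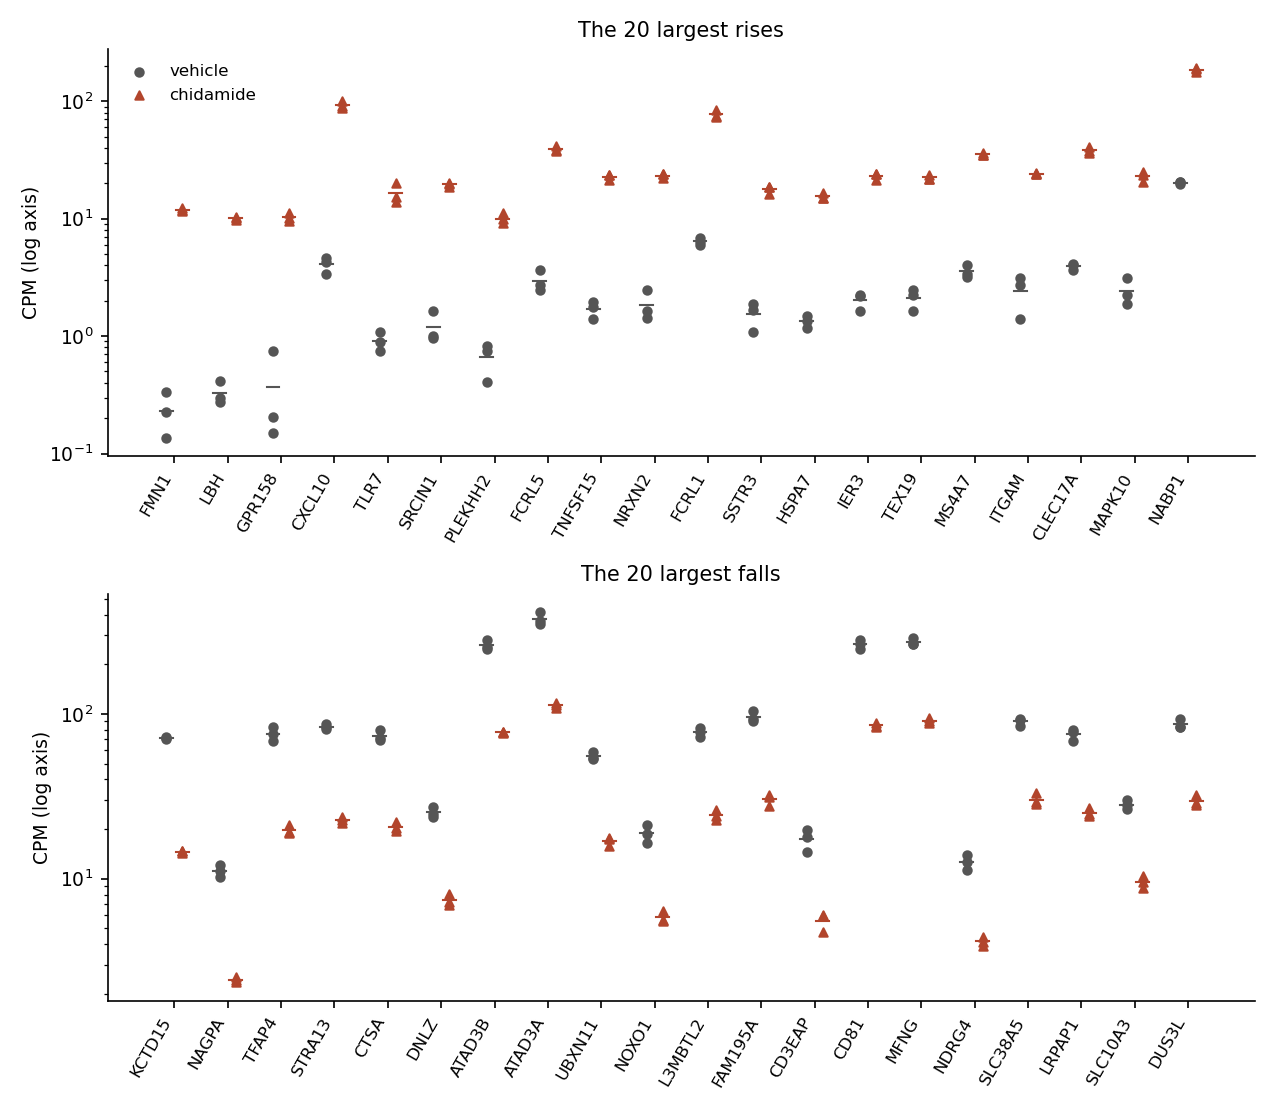
CPM (log axis) in each of the 6 libraries labelled JeKo-1 for the 20 largest rises and the 20 largest falls; dots are libraries and bars are group means. Genes were taken only where the 3 chidamide libraries lie on one side of the 3 vehicle libraries. The rises span a wider range (log2 change up to 5.67) than the falls (down to −2.29).

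Ranked by difference in CPM instead of by fold, the 8 largest gains were in LCP1, ACTB, CD74, TMSB4X, HLA-DRA, EEF2, CD83 and RPL3. LCP1, the leukocyte actin bundler, was at 3778, 3538 and 3415 CPM in vehicle and at 5464, 5383 and 5240.5 CPM after chidamide (log2 change 0.58 ± 0.03, edgeR's quasi-likelihood test, adjusted p = 9.88e-22). TMSB4X, which sequesters actin monomers, rose from 1063 ± 53.8 to 1918 ± 35.4 CPM and ACTB, cytoplasmic actin, from 8762 ± 186 to 10507 ± 123 CPM. CD74, the invariant chain of MHC class II, rose from 5412 ± 292 to 6880.2 ± 151 CPM and HLA-DRA from 1788 ± 40.1 to 2599 ± 47.4 CPM. CD83, an activation marker of B and dendritic cells, went from 162, 162 and 157 CPM to 753, 749.7 and 699 CPM, the only one of the 8 largest gains to exceed 2-fold. EEF2 and RPL3, of the translation machinery, gained less on the log2 scale, by 0.27 ± 0.03 and 0.21 ± 0.03. The 8 largest losses began with HSPA8, a constitutive chaperone, from 3738 ± 194 to 2738 ± 84.2 CPM, and included the glycolytic enzyme genes GAPDH, from 4995 ± 150.4 to 4196 ± 58.8 CPM, and ENO1, from 3113 ± 71.2 to 2398 ± 9.68 CPM. NCL, the nucleolar protein nucleolin, fell from 2348 ± 31.4 to 1449 ± 41.9 CPM and EIF5A, a translation elongation factor, from 1720.0 ± 86.6 to 1031 ± 11.1 CPM. TUBB, the main beta-tubulin, fell from 2523 ± 64.6 to 1638 ± 13.4 CPM and PTMA, the chromatin-associated prothymosin, from 2842 ± 265 to 2059 ± 61.0 CPM. MCM7, of the replicative helicase, fell from 1272 ± 51.5 to 592 ± 10.1 CPM, the only one of the 8 largest losses to exceed 2-fold.

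Promoters that hold either of 2 motifs are shown for some of the genes that moved most. RefSeq promoters of GRCh38.p14 were matched by symbol for 10797 of the tested genes (71.6%), for 71.1% of those at least 2-fold higher and 78.0% of those at least 2-fold lower, and the 250 bases before the start were searched on both strands. Since fewer than 80% had a promoter, a comparison of motif shares between these sets is void, and the shares below describe the matched promoters only. The GC, CCAAT and TATA boxes and the AP-1, CRE and NRF1 sites were searched too. In that order they were in 69.9%, 39.4%, 5.13%, 3.21%, 3.85% and 2.56% of promoters of genes at least 2-fold lower. Among those at least 2-fold higher the shares were 53.9%, 32.4%, 9.57%, 3.59%, 1.47% and 1.03%. The E-box CACGTG, the site that MYC-family factors can bind, was in 15.4% of 312 promoters of genes at least 2-fold lower, 6.41% of 1840 at least 2-fold higher, 8.78% of all tested genes with a promoter and 6.49% of all 27305 promoters. Of the 20 largest falls 13 had a promoter and 4 held the E-box. Of the 13 promoters among the 20 largest rises 0 did, and these numbers are too small to compare. Those 4 are the transmembrane and lysosomal genes SLC38A5, NAGPA and CTSA and the polymerase subunit gene CD3EAP. They are printed 5′ to 3′ on the gene's strand, with the E-box in capitals.
CTSA (chr20:45891085-45891334, plus strand): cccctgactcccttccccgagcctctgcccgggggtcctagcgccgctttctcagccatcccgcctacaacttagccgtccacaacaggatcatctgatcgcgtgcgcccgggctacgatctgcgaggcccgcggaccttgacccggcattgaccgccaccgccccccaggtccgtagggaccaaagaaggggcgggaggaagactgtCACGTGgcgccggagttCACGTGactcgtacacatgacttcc
NAGPA (chr16:5033936-5034185, minus strand): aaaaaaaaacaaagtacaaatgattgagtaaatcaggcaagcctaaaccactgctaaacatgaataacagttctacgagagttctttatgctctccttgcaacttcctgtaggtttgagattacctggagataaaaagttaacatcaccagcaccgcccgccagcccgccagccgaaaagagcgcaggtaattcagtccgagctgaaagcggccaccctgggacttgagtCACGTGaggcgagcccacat
CD3EAP (chr19:45406394-45406643, plus strand): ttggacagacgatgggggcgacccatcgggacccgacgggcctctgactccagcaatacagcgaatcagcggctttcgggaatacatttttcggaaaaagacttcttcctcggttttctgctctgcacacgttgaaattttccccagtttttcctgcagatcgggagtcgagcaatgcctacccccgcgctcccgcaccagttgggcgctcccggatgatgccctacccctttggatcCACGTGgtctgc
SLC38A5 (chrX:48470261-48470510, minus strand): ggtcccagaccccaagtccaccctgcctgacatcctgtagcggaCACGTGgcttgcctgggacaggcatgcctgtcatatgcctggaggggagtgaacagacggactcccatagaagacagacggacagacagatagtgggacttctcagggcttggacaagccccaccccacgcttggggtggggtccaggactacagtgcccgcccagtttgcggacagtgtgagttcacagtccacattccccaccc
The matches begin 42 and 25 bases upstream of the start in CTSA, 20 in NAGPA, 12 in CD3EAP and 206 in SLC38A5. CTSA, which encodes cathepsin A, fell from 74.0 ± 5.65 to 20.7 ± 1.30 CPM, and NAGPA, which uncovers the sorting signal of lysosomal enzymes, from 11.2 ± 0.989 to 2.44 ± 0.0942 CPM. A match is a description of the sequence and not a bound site.

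The second motif, GAAA, any 2 bases and GAAA again, resembles the interferon-stimulated response element bound by interferon regulatory factors. It was in 4.51% of the 1840 promoters of genes at least 2-fold higher, 1.28% of the 312 at least 2-fold lower, 2.72% of all tested genes with a promoter and 3.07% of all promoters. In the list of interferon-stimulated genes 18 of the 28 matched promoters held it (64.3%), of 41 tested genes. In the complement, Fc receptor and FCRL list, also with many rises, 2 of 28 matched promoters held it (7.14%). Among the 13 promoters of the largest rises it was in CXCL10, FCRL1 and MAPK10, and among the 13 of the largest falls in 0, again too few to compare. CXCL10 is an interferon-induced chemokine, FCRL1 a B-cell receptor-like activator, PARP14 a mono-ADP-ribosyltransferase and IFI44L an interferon-induced protein. Their promoters are printed 5′ to 3′ on the gene's strand with the motif in capitals.
CXCL10 (chr4:76023498-76023747, minus strand): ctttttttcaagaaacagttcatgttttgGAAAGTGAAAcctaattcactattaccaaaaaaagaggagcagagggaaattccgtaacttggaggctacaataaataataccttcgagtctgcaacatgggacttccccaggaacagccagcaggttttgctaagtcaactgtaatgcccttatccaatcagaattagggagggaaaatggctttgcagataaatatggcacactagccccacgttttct
FCRL1 (chr1:157820121-157820370, minus strand): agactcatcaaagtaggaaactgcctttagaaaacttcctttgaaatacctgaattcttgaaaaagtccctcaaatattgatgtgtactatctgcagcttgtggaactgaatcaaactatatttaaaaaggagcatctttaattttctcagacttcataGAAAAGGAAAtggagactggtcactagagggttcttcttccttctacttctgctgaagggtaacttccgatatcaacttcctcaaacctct
PARP14 (chr3:122680589-122680838, plus strand): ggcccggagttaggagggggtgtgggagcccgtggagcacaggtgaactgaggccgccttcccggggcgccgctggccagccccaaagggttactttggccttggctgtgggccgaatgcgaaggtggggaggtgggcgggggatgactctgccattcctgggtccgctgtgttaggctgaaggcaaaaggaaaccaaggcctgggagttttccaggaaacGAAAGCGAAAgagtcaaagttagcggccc
IFI44L (chr1:78620198-78620447, plus strand): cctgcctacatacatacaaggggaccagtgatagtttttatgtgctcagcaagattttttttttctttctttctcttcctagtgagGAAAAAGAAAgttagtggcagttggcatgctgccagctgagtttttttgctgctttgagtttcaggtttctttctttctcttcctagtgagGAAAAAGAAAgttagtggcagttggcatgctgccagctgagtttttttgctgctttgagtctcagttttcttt
The match begins 221 bases upstream in CXCL10, 91 in FCRL1, 29 in PARP14, and 164 and 73 in IFI44L. PARP14 was at 0.342, 0.225 and 0.0828 CPM in vehicle and at 5.49, 5.97 and 5.03 CPM after chidamide, from near silence in each vehicle library (log2 change 4.56 ± 0.28, edgeR's quasi-likelihood test, adjusted p = 3.83e-21). IFI44L rose from 0.599 ± 0.401 to 9.16 ± 1.12 CPM. Of 41 tested interferon-stimulated genes 33 rose and 1 fell, ISG15, a ubiquitin-like modifier (log2 change −0.56 ± 0.10).

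Receptors and soluble factors of the immune system were among the lists with the highest share of rises. Of 38 tested complement, Fc receptor and FCRL genes 30 rose and 3 fell, with a median log2 change of 1.74 (1.70 with genes at 0 set to their bounds), beside 35.3% rising, 31.1% falling and a median of 0.04 over all tested genes. FCRL1 was at 6.90, 5.995 and 6.29 CPM in vehicle and at 74.8, 73.4 and 83.7 CPM after chidamide (log2 change 3.59 ± 0.09, edgeR's quasi-likelihood test, adjusted p = 1.50e-37). FCRL5, an Fc-receptor-like protein that binds IgG, was at 3.62, 2.70 and 2.48 CPM and then at 37.7, 41.7 and 38.7 CPM (log2 change 3.72 ± 0.10, edgeR adjusted p = 1.10e-36). Both were low and uniform in vehicle, and both belong to the largest rises, which were taken from genes without overlap. LAIR1, an inhibitory collagen receptor, rose from 0.561 ± 0.348 to 8.23 ± 0.972 CPM. PIGR, which carries immunoglobulins across epithelia, had 0 against 11 counts over the 3 libraries, at least 3.14-fold higher (2.04-fold without chidamide replicate 2). The 3 that fell were SIGLEC10, an inhibitory sialic-acid lectin (log2 change −0.69 ± 0.09), CLEC2D (−0.60 ± 0.06) and CLECL1 (−0.18 ± 0.08). The call of CLECL1 was marginal: it was lost under 13 of 15 alternatives, among them the removal of any 1 of 5 of the 6 libraries (log2 change −0.22 to −0.04 over all alternatives, adjusted p by edgeR, DESeq2 or limma 0.0343 to 0.726).

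Among 49 Toll-like receptor and inflammasome genes 30 rose and 7 fell. Besides TLR7, TLR3 (double-stranded RNA receptor) had 2, 0 and 0 counts in vehicle and 24, 19 and 7 after chidamide, 21.4 times (95% exact counting interval 5.63 to 182), both vehicle counts being in replicate 1. TLR8 had 0 and 8, at least 2.29-fold higher, and the inflammasome sensor NLRP3 had 0 and 15, at least 4.29-fold higher (2.24-fold without chidamide replicate 1). TMEM173, which encodes the cytosolic DNA adaptor STING, had 0 and 11 counts, at least 3.14-fold higher, a call lost without chidamide replicate 3, which held 9 of the 11 (edgeR adjusted p = 0.141). In the opposite direction, IRAK1, the kinase downstream of these receptors, was at 372, 435 and 379 CPM in vehicle and at 156, 150.2 and 154 CPM after the drug (log2 change −1.37 ± 0.05, edgeR's quasi-likelihood test, adjusted p = 1.15e-30). UNC93B1, which escorts endosomal Toll-like receptors, fell from 88.5 ± 0.518 to 48.2 ± 2.74 CPM, and TLR9, the DNA receptor, from 90.2 ± 6.96 to 55.1 ± 4.34 CPM.

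Of 57 tested cytokine, chemokine and growth factor genes 33 rose and 7 fell (median log2 change 1.34, 1.39 with bounds). IL15, which sustains natural killer and memory T cells, had 0, 0 and 0 counts in vehicle and 37, 13 and 11 after chidamide, at least 17.4-fold higher (10.8-fold without chidamide replicate 1). HGF, the ligand of the receptor MET, had 0, 0 and 0 and 15, 14 and 15 counts, at least 12.6-fold higher. Both genes had no read in any vehicle library. CCL17, a chemokine that attracts T cells, fell from 4.76 ± 0.494 to 2.27 ± 0.146 CPM, VEGFB from 46.9 ± 2.75 to 28.5 ± 1.97 CPM, and IL10, an anti-inflammatory cytokine, from 15.2 ± 2.31 to 9.29 ± 0.854 CPM. Among 33 NF-kB targets 24 rose and 7 fell. TNF rose from 16.7 ± 2.50 to 71.9 ± 3.71 CPM and LTA, its lymphocyte relative, from 27.1 ± 1.27 to 84.9 ± 5.32 CPM, while NFKBIB, an inhibitor of NF-kB, fell from 97.2 ± 11.1 to 44.8 ± 0.570 CPM and SOD2, the mitochondrial superoxide dismutase, from 123 ± 1.55 to 56.7 ± 1.75 CPM.

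Genes of cell guidance and contact rose more often than they fell. Of 35 tested semaphorin, plexin and ephrin genes 19 rose and 1 fell (median log2 change 1.03, 0.97 with bounds). The share of rises was 54.3%, beside 35.3% of all tested genes, of which 31.1% fell. At 1 to 3 CPM 56.9% of all tested genes rose and 5.8% fell. EPHA4, an ephrin receptor, was at 0.137, 0.0749 and 0.331 CPM in vehicle and at 3.84, 4.41 and 4.64 CPM after chidamide (log2 change 4.55 ± 0.37, edgeR's quasi-likelihood test, adjusted p = 4.10e-16; log2 change 5.21 without vehicle replicate 3). The secreted guidance cue SEMA3A had 0 and 16 counts over 3 libraries, at least 4.57-fold higher, and the ligand EFNA5 0 and 25, at least 7.15-fold higher. The fall was in PLXNA1, a semaphorin receptor, from 126 ± 2.80 to 103 ± 2.72 CPM. Of 44 adhesion and integrin genes 21 rose and 13 fell (7 with upper-quartile scaling). ITGAM, the integrin chain CD11b, went from 3.14, 2.70 and 1.41 CPM to 23.9, 24.7 and 23.9 CPM, and ITGB3, the beta chain of the vitronectin receptor, from 0 counts in vehicle to 19, 19 and 12, at least 14.3-fold higher. Falls of the list included the tetraspanin genes CD81, as above, CD151 and CD63. CD151, which binds laminin-binding integrins, went from 54.1 ± 2.27 to 23.3 ± 1.80 CPM, and CD63 from 65.03 ± 4.24 to 45.3 ± 0.336 CPM. Of 18 tested genes with TSPAN names 5 rose and 5 fell, at a median level of 0.878 CPM, far below these 3 genes. Of all tested genes below 1 CPM 35.9% rose and 0.939% fell, so no direction is given for the family.

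G-protein-coupled receptor genes rose more often than they fell. Of 44 tested receptor genes of this class 25 rose and 9 fell (median log2 change 0.79, 0.79 with bounds), beside 35.3% and 31.1% of all tested genes. The share of rises, 56.8%, is near the 56.9% of all tested genes at 1 to 3 CPM, where 5.8% fell. FPR1, the receptor for bacterial formyl peptides, was at 0.137, 0.0749 and 0.248 CPM in vehicle and at 2.01, 2.70 and 4.13 CPM after chidamide (log2 change 4.22 ± 0.50, edgeR's quasi-likelihood test, adjusted p = 1.82e-10). P2RY11, a nucleotide receptor, fell from 12.6 ± 2.34 to 7.56 ± 0.629 CPM. The regulators RGS2 and RGS9, which speed GTP hydrolysis by G-alpha, rose by 2.67 ± 0.14 and 2.64 ± 0.30 on the log2 scale. ADRBK1, the receptor kinase GRK2, fell from 401 ± 19.7 to 218 ± 9.91 CPM and RGS14 from 65.2 ± 2.03 to 27.2 ± 1.23 CPM. Over the 42 tested RGS, arrestin and G-protein subunit genes the counts were 16 and 14, with a median of 0.00 that turns to 0.04 with upper-quartile scaling.

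Ion channel genes counted 26 rises and 18 falls among 62 tested (41.9% and 29.0%), beside 35.3% and 31.1% of all tested genes. SCN3A, a neuronal sodium channel, had 0, 0 and 0 counts in vehicle and 55, 61 and 53 after chidamide, at least 48.3-fold higher. SCN8A, another sodium channel, was at 0.205, 0 and 0.331 CPM and then at 3.96, 3.20 and 3.37 CPM (log2 change 4.27 ± 0.40, edgeR's quasi-likelihood test, adjusted p = 4.06e-14; log2 change 4.93 without vehicle replicate 3). The largest falls of the list after the low-level HCN2 were in channels with a clear level in vehicle: CLCN7, the lysosomal chloride exchanger, fell from 90.3 ± 5.05 to 45.8 ± 0.902 CPM, TRPV2, a calcium-permeable channel, from 52.3 ± 1.57 to 29.1 ± 1.38 CPM, and KCNQ5, a potassium channel, from 99.7 ± 4.39 to 58.7 ± 0.507 CPM. In calcium signalling 23 of 45 tested genes rose and 11 fell. RCAN3, an inhibitor of calcineurin, rose by 1.28 ± 0.10 and RYR2, a calcium release channel, by 2.55 ± 0.47 (3.33 without vehicle replicate 2), while CAMKK2, a calcium-activated kinase, fell by 1.83-fold to 80.1 ± 3.12 CPM and EFHD2, a calcium-binding protein of B cells, went to 143 ± 4.33 from 284 ± 13.9 CPM. Of 39 cAMP and cGMP pathway genes 20 rose and 7 fell. PDE2A and PDE4C, phosphodiesterases that degrade cyclic nucleotides, rose by 3.13 ± 0.58 and 2.13 ± 0.46, and ADCY3 and PRKAR1B, an adenylyl cyclase and a regulatory subunit of protein kinase A, changed by −0.73 ± 0.05 and −0.98 ± 0.05.

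Kinase cascade genes changed in both directions, as did all tested genes. Of 57 tested MAP kinase cascade genes 27 rose and 20 fell (47.4% and 35.1%), beside 35.3% and 31.1% of all tested genes. MAP2K6, which activates p38, rose from 6.15 ± 0.650 to 21.1 ± 1.34 CPM, whereas HRAS, RASGRP2 and RASGRP3, a RAS protein and 2 activators of RAS-family proteins, fell by 2.11-, 1.97- and 1.83-fold. SPRED2, an inhibitor of RAS to RAF signalling, was at 10.7, 11.9 and 11.6 CPM in vehicle and at 44.99, 42.1 and 41.8 CPM after chidamide (log2 change 1.92 ± 0.09, edgeR's quasi-likelihood test, adjusted p = 8.02e-26). DUSP5, a nuclear ERK phosphatase, rose from 11.6 ± 0.997 to 38.4 ± 2.27 CPM and DUSP16, a JNK phosphatase, from 11.5 ± 0.414 to 27.7 ± 1.37 CPM, while DUSP7, a cytoplasmic ERK phosphatase, fell from 62.3 ± 1.66 to 26.1 ± 1.62 CPM. Over the 24 tested phosphatase genes of this list 8 rose and 4 fell (2 with upper-quartile scaling).

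Developmental signalling pathways also held changes in both directions, where 35.3% of all tested genes rose and 31.1% fell. Of 41 tested Notch and Hedgehog genes 21 rose and 8 fell (median log2 change 0.96, 0.62 with bounds). NOTCH4 rose from 1.61 ± 0.202 to 10.2 ± 1.49 CPM and MAML3, a Notch coactivator, from 0.269 ± 0.183 to 4.46 ± 0.663 CPM, while NOTCH1 fell from 54.5 ± 3.91 to 31.5 ± 2.17 CPM and DTX1, a Notch-regulated ubiquitin ligase, from 560.0 ± 33.0 to 342 ± 2.07 CPM. Of 46 Wnt pathway genes 20 rose and 11 fell (7 with upper-quartile scaling). The ligand WNT10B was at 0.205, 0.150 and 0.0828 CPM in vehicle and at 3.01, 1.42 and 1.91 CPM after chidamide (log2 change 3.77 ± 0.47, edgeR's quasi-likelihood test, adjusted p = 5.51e-10). RNF43, which removes Wnt receptors from the surface, went from 3, 0 and 0 counts to 49, 33 and 45, a ratio of 36.3 times (95% exact counting interval 12.1 to 178), with all 3 vehicle counts in vehicle replicate 1, so that without it the vehicle libraries held 0. AXIN1, the destruction-complex scaffold, fell from 137 ± 10.9 to 61.2 ± 6.26 CPM, DVL1, the adaptor below Frizzled receptors, from 137 ± 8.19 to 61.8 ± 5.25 CPM and GSK3A from 124 ± 0.727 to 69.4 ± 1.35 CPM. In the TGF-beta and BMP list, with 17 rises and 5 falls (3 with upper-quartile scaling) among 43, SMAD1, a BMP effector, rose from 0.342, 0.300 and 0.745 CPM to 6.67, 4.91 and 4.71 CPM (log2 change 3.58 ± 0.28, edgeR adjusted p = 4.13e-17), while the ligand TGFB1 fell from 207 ± 10.7 to 123 ± 4.27 CPM.

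Genes that shape the cell are given beside the 35.3% of all tested genes that rose and the 31.1% that fell. Of 82 tested actin regulators 39 rose and 20 fell, the falls including FMNL1, a leukocyte formin, from 148 ± 7.36 to 83.9 ± 4.84 CPM and ARPC4, of the Arp2/3 complex, from 129.8 ± 8.58 to 83.2 ± 4.49 CPM. Among 77 tubulin and microtubule genes 25 rose and 31 fell (20 with upper-quartile scaling). MAP2, a dendritic microtubule protein, had 0, 0 and 0 counts in vehicle and 57, 44 and 64 after the drug, at least 47.2-fold higher, whereas DYNC1H1, the dynein heavy chain, fell from 709.6 ± 20.9 to 430.1 ± 7.81 CPM and TTLL12 from 415 ± 20.5 to 180.1 ± 2.26 CPM. For cilium and centriole genes (26 rises and 30 falls of 76) the median of −0.08 becomes 0.07 with upper-quartile scaling, so no direction is given.

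Membrane traffic was mixed, and the medians of its 3 lists, at or just below 0 with TMM, lay above 0 with upper-quartile scaling. RAB GTPases and their regulators counted 24 rises and 20 falls of 73 (median 0.00), coat and sorting genes 26 and 37 of 92 (−0.02), and SNARE and synaptotagmin genes 22 and 24 of 64 (−0.00). With upper-quartile scaling the medians were 0.14, 0.11 and 0.09, and the counts 32 and 13, 42 and 31, and 25 and 15. RAB27A, which docks secretory lysosomes, was at 0.273, 0.375 and 0.166 CPM in vehicle and at 3.96, 4.34 and 4.26 CPM after chidamide (log2 change 3.89 ± 0.29, edgeR's quasi-likelihood test, adjusted p = 2.14e-17). SYT11, a synaptotagmin, rose from 16.9 ± 1.65 to 66.5 ± 4.26 CPM. HGS, which starts sorting of ubiquitinated receptors, fell from 138 ± 6.79 to 66.1 ± 2.90 CPM, VPS33A and VPS11, of the lysosomal tethering complexes, by 2.05- and 1.79-fold, and RAB11B, of recycling endosomes, by 2.07-fold. Of 90 glycosylation genes 33 rose and 34 fell (36.7% and 37.8%), beside 35.3% and 31.1% of all tested genes. ST3GAL6, a sialyltransferase that caps glycans, rose from 0.145 ± 0.150 to 2.63 ± 0.126 CPM (log2 change 4.06 ± 0.49, and 4.998 without vehicle replicate 2). ALG3 and ALG1, mannosyltransferases that build the core glycan in the endoplasmic reticulum, fell, ALG3 from 70.8 ± 3.60 to 26.8 ± 1.96 CPM and ALG1 from 32.3 ± 2.08 to 14.1 ± 0.732 CPM.

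Lipid, metal and transporter genes are described next, beside 35.3% rising and 31.1% falling over all tested genes. Of 86 sphingolipid and phospholipid genes 39 rose and 24 fell. CERS2, the ceramide synthase for very long acyl chains, was at 124, 123 and 122 CPM in vehicle and at 49.1, 48.6 and 48.3 CPM after chidamide (log2 change −1.34 ± 0.05, edgeR's quasi-likelihood test, adjusted p = 1.30e-28). PCYT2 and PEMT, of phosphatidylethanolamine synthesis and its methylation, fell by 2.37- and 2.49-fold, while PLCB1, a phospholipase C, had 0 and 17 counts over 3 libraries, at least 4.86-fold higher (2.45-fold without chidamide replicate 2). Of 32 ABC transporter genes 15 rose and 11 fell (6 with upper-quartile scaling). ABCB4, the phosphatidylcholine exporter, was at 0.0683, 0.0749 and 0.331 CPM in vehicle and at 4.66, 3.48 and 4.64 CPM after the drug (log2 change 4.76 ± 0.38, edgeR adjusted p = 1.54e-16; log2 change 5.75 without vehicle replicate 3), and the multidrug exporter gene ABCB1 went from 0, 0 and 3 counts to 22, 16 and 12, a ratio of 14.3 times (95% exact counting interval 4.62 to 71.6). Both were close to 0 in every vehicle library. Iron and heme genes counted 6 rises (12 with upper-quartile scaling) and 26 falls of 47. IBA57 and NFS1, of mitochondrial iron-sulfur cluster assembly, fell by 1.89- and 1.56-fold, and FECH, which inserts iron into heme, rose by 0.48 ± 0.06 on the log2 scale. ATP7B, a copper exporter, rose from 1.48 ± 0.369 to 7.48 ± 1.04 CPM and SLC39A4, a zinc importer, fell from 36.9 ± 3.58 to 14.3 ± 0.416 CPM. In the glutathione and redox list (15 rises and 22 falls of 57, median −0.01, turning to 0.07 with upper-quartile scaling) SESN3 and SESN1, stress-induced inhibitors of mTORC1, rose by 3.13- and 2.36-fold, and KEAP1, the sensor that restrains NRF2, fell from 161 ± 7.98 to 91.6 ± 3.37 CPM.

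Transcription and chromatin genes divided by family. Of 58 tested homeobox and SOX genes 24 rose and 9 fell (41.4% and 15.5%), beside 35.3% and 31.1% of all tested genes. SATB1, a chromatin organizer of lymphocytes, was at 5.53, 6.22 and 5.05 CPM in vehicle and at 46.4, 44.7 and 44.7 CPM after chidamide, an 8.06-fold rise (log2 change 3.01 ± 0.11, edgeR's quasi-likelihood test, adjusted p = 3.13e-31). PITX1, a limb and pituitary homeobox gene, fell from 33.4 ± 3.83 to 12.4 ± 1.24 CPM. Of 33 nuclear receptor genes 15 rose and 9 fell. NR4A2 and NR4A3 are orphan receptors induced by antigen receptor signals. NR4A2 had 0, 0 and 0 counts in vehicle and 20, 15 and 23 after chidamide, at least 16.58-fold higher, and NR4A3 rose from 0.121 ± 0.0729 to 2.19 ± 0.540 CPM (log2 change 4.04 ± 0.47, and 4.66 without vehicle replicate 1), while ESRRA, a regulator of mitochondrial genes, fell from 172 ± 12.2 to 93.3 ± 3.30 CPM.

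Chromatin modifiers and the general transcription machinery held more falls than rises, less so with upper-quartile scaling. Of 96 polycomb and DNA or histone methylation genes 20 rose and 54 fell (median log2 change −0.17; with upper-quartile scaling −0.02, 30 rises and 35 falls). PRMT5, an arginine methyltransferase, fell from 123 ± 3.30 to 64.4 ± 0.416 CPM, KMT2B, a histone H3 lysine 4 methyltransferase, from 143 ± 1.27 to 73.1 ± 2.28 CPM and PHF19, an accessory polycomb subunit, from 118 ± 2.61 to 55.3 ± 2.097 CPM. KDM7A, a histone demethylase, rose from 8.47 ± 0.652 to 20.7 ± 2.58 CPM. Of 75 RNA polymerase II and Mediator genes 13 rose and 37 fell (median −0.15; with upper-quartile scaling −0.01, 19 rises and 31 falls), the polymerase subunit genes POLR2F and POLR2I falling by 2.05- and 1.90-fold and the Mediator kinase gene CDK19 rising by 1.75-fold.

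Lists of RNA handling and mitochondria were among those with the highest share of falls. Of 67 tested nuclear pore and transport genes 54 fell and 1 rose, with a median log2 change of −0.40 beside 31.1% falling and a median of 0.04 over all tested genes. ALYREF, an mRNA export adaptor, was at 210.3, 215 and 209.7 CPM in vehicle and at 79.8, 84.2 and 84.4 CPM after chidamide (log2 change −1.36 ± 0.05, edgeR's quasi-likelihood test, adjusted p = 7.59e-32). RCC1, which loads RAN with GTP on chromatin, was at 357, 378 and 341 CPM and then at 168, 169 and 175 CPM (log2 change −1.07 ± 0.05, edgeR adjusted p = 3.02e-27). NXT1, an mRNA export cofactor, and IPO4, an importin, fell by 2.17- and 2.02-fold, and the pore subunit gene NUP160 was the rise (log2 change 0.26 ± 0.05). These falls were uniform rather than large, since 4 of the list reached 2-fold. With upper-quartile scaling the counts were 8 and 44 and the median −0.26.

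RNA polymerase III and tRNA processing genes counted 64 falls and 14 rises of 92 (median −0.41). TRMT61A, which methylates adenosines of tRNA, was at 83.1, 97.1 and 83.7 CPM in vehicle and at 29.9, 29.9 and 30.7 CPM after the drug (log2 change −1.54 ± 0.06, edgeR's quasi-likelihood test, adjusted p = 4.96e-28). TRMT1, a guanosine methyltransferase of tRNA, fell from 110.4 ± 9.60 to 48.9 ± 2.70 CPM and MAF1, the repressor of polymerase III, from 145 ± 16.8 to 66.6 ± 1.90 CPM. Of 61 translation factor genes 41 fell (26 with upper-quartile scaling) and 10 rose. PDCD4, an inhibitor of the helicase eIF4A, was the largest rise of that list, from 52.9, 51.0 and 56.6 CPM to 157, 171 and 161 CPM (log2 change 1.61 ± 0.05, edgeR adjusted p = 1.53e-33), beside falls in EIF2B4, of the factor that recharges eIF2, and EIF4A3, of the exon junction complex (−0.82 ± 0.08 and −0.76 ± 0.05). Among 73 mRNA decay genes 47 fell and 13 rose. The antiproliferative deadenylation cofactors BTG1 and BTG2 rose from 50.6 ± 3.84 to 119 ± 2.18 CPM and from 123 ± 4.92 to 326 ± 13.7 CPM, while UPF1, of nonsense-mediated decay, fell from 358 ± 11.05 to 197 ± 8.51 CPM and the exosome subunit gene EXOSC5 from 62.9 ± 4.87 to 29.9 ± 2.19 CPM. In the microRNA pathway list (9 rises and 6 falls of 22, median −0.03, turning to 0.12 with upper-quartile scaling) AGO2, the slicing Argonaute, fell by 1.57-fold and AGO4 rose by 1.63-fold.

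Mitochondrial import and protein quality genes counted 40 falls and 3 rises of 52 (median −0.45, −0.31 and 5 rises with upper-quartile scaling). TOMM40, the channel of the outer membrane, was at 458, 519.3 and 448 CPM in vehicle and at 199, 212 and 198 CPM after chidamide (log2 change −1.23 ± 0.05, edgeR's quasi-likelihood test, adjusted p = 1.26e-23). TIMM44, the anchor of the import motor, was at 155, 166 and 153 CPM and then at 60.6, 61.0 and 63.0 CPM (log2 change −1.36 ± 0.05, edgeR adjusted p = 3.02e-29), and DNLZ, the escort of the matrix chaperone, fell from 25.2 ± 1.88 to 7.37 ± 0.577 CPM. The 3 rises were IMMP2L, an inner-membrane peptidase (0.55 ± 0.12), the stress protease gene OMA1 (0.40 ± 0.09) and PMPCB, of the presequence protease (0.15 ± 0.05). The call of PMPCB was lost without vehicle replicate 3 (log2 change 0.11, edgeR adjusted p = 0.0680). Of 41 genes for mitochondrial DNA, RNA and translation 31 fell and 4 rose (20 and 8 with upper-quartile scaling), POLRMT, the mitochondrial RNA polymerase, falling from 216, 262 and 225 CPM to 94.7, 98.9 and 95.7 CPM (log2 change −1.28 ± 0.05, edgeR adjusted p = 3.77e-27). Of 27 fusion, fission and mitophagy genes 17 fell and 2 rose (11 and 7 with upper-quartile scaling). MFN2, which fuses outer membranes, fell from 279 ± 12.1 to 159.7 ± 2.18 CPM and MTFP1, a fission protein, from 134 ± 4.70 to 56.8 ± 1.65 CPM. The peroxisome list was split (13 rises and 17 falls of 41, median −0.09, 0.04 with upper-quartile scaling).

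Protein tagging, chromosome maintenance and replication are described next. Of 137 ubiquitin ligase and deubiquitinase genes 48 rose and 44 fell (35.0% and 32.1%), near the 35.3% and 31.1% of all tested genes. KLHL21, a substrate receptor used in mitosis, fell from 108 ± 3.89 to 39.3 ± 1.54 CPM and USP36, a nucleolar deubiquitinase, from 147 ± 6.38 to 76.2 ± 2.95 CPM, while the ligase gene NEDD4 rose from 11.7 ± 0.0357 to 29.8 ± 1.28 CPM. In the SUMO and NEDD8 pathways 25 of 40 fell and 10 rose, UBE2M, the NEDD8-conjugating enzyme, falling from 167 ± 15.7 to 89.9 ± 3.64 CPM. Of 46 telomere, cohesin and condensin genes 9 rose and 20 fell (median −0.10; with upper-quartile scaling 0.05 and 18 rises). TERT, the catalytic subunit of telomerase, was at 59.6, 62.7 and 65.4 CPM in vehicle and at 33.2, 33.7 and 36.5 CPM after chidamide (log2 change −0.86 ± 0.07, edgeR's quasi-likelihood test, adjusted p = 6.02e-16), and DKC1, which stabilises the telomerase RNA, fell from 279 ± 11.05 to 160.2 ± 5.26 CPM. PTTG1, securin, rose from 45.5 ± 6.82 to 77.9 ± 2.20 CPM. Of 59 MYC target genes 57 fell and 0 rose (median −0.74), and of 46 DNA replication genes 32 fell and 7 rose (12 with upper-quartile scaling). Both directions occurred within replication, where ORC1, which marks origins, fell by 2.07-fold and POLD4, a small subunit of polymerase delta, rose by 1.81-fold. In the circadian list (4 rises and 8 falls of 21, median −0.01, 0.09 with upper-quartile scaling) NR1D1, a clock repressor, fell by 1.86-fold and NFIL3 rose by 1.65-fold.

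**Figure D3:**
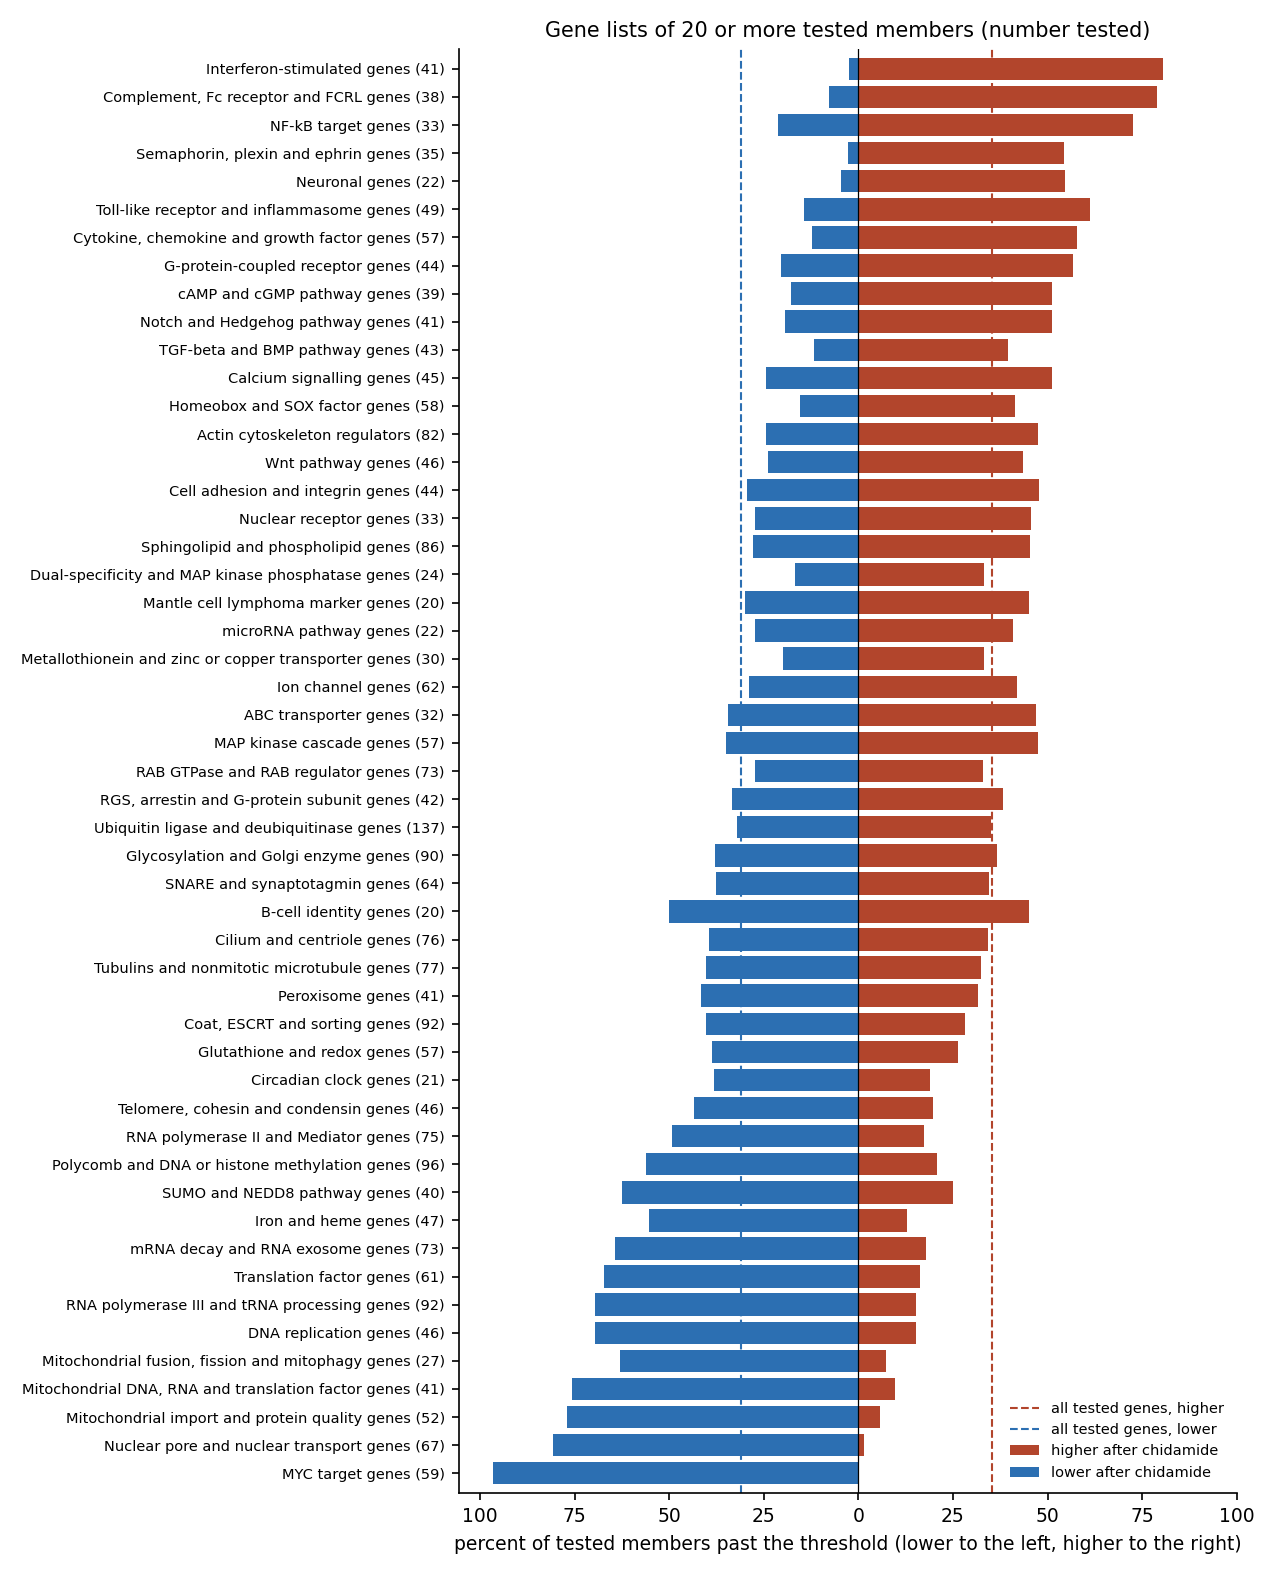
Percent of tested genes that rose (bars to the right) or fell (bars to the left) in each of 51 gene lists with at least 20 tested members, under the JeKo-1 label; dashed lines mark all tested genes, 35.3% rising and 31.1% falling. Interferon, complement and Fc receptor lists extend furthest right, and MYC target and nuclear pore lists furthest left. The lists were chosen with earlier results of these data known, so their order is a description only.

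B-cell identity genes moved in both directions, where 35.3% of all tested genes rose and 31.1% fell. Of 20 tested 9 rose and 10 fell, with a median log2 change of −0.09 that turns to 0.06 with upper-quartile scaling. CR2, the complement receptor CD21, was at 249.8, 225 and 228 CPM in vehicle and at 721, 768 and 738 CPM after chidamide (log2 change 1.66 ± 0.04, edgeR's quasi-likelihood test, adjusted p = 1.42e-36). BANK1, a B-cell scaffold protein, was at 26.8, 22.7 and 24.9 CPM and then at 79.7, 77.3 and 73.3 CPM (log2 change 1.63 ± 0.08, edgeR adjusted p = 1.04e-25). MS4A1 rose from 499 ± 25.9 to 781 ± 11.1 CPM and CD22, an inhibitory receptor, from 224 ± 16.3 to 448 ± 8.69 CPM. The falls held the signalling chain genes CD79A and CD79B, which went from 755 ± 59.8 to 503 ± 13.95 CPM and from 637 ± 53.5 to 475 ± 6.92 CPM, and the transcription factor genes PAX5 (−0.55 ± 0.04) and IKZF3 (−0.67 ± 0.04). Of 15 tested plasma-cell genes 8 rose and 4 fell. SLAMF7, a surface receptor of plasma and natural killer cells, rose from 13.3 ± 0.323 to 51.7 ± 2.67 CPM and PRDM1, the plasma-cell regulator, from 0.912 ± 0.692 to 1.93 ± 0.436 CPM, while JCHAIN, which joins IgM and IgA, changed by −0.16 ± 0.05 and the secretory factors TXNDC5 and FKBP11 by −1.11 ± 0.20 and −0.93 ± 0.06. The call of PRDM1 was lost without vehicle replicate 2 (log2 change 0.68, edgeR adjusted p = 0.0543; 1.89 without vehicle replicate 1), and that of JCHAIN without vehicle replicate 1 (−0.09, edgeR adjusted p = 0.0852) and with upper-quartile scaling (−0.01, adjusted p = 0.836).

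Markers of other cell types moved unevenly. The summed level was higher in every chidamide library for the myeloid, T-cell and epithelial lists, by a small margin for the neuronal list, and overlapped between the groups for the erythroid list. Of 21 myeloid markers 9 could be tested and 6 of these rose, with the summed level of all 21 at 5.46 to 9.09 CPM in vehicle and 47.0 to 48.6 CPM after chidamide. A large part of that sum was ITGAM, given above with the integrins, at 2.42 ± 0.901 CPM in vehicle and 24.1 ± 0.453 CPM after chidamide. CSF1R, the macrophage colony-stimulating factor receptor, had 3, 1 and 3 counts in vehicle and 138, 126 and 147 after chidamide (log2 change 5.59 ± 0.29, edgeR's quasi-likelihood test, adjusted p = 8.00e-24), and CD33 and LYZ, a myeloid lectin and lysozyme, rose from 0.341 ± 0.257 to 4.76 ± 1.04 CPM and from 0.335 ± 0.234 to 3.46 ± 0.499 CPM. The defining granulocyte genes MPO and ELANE had 0 counts in all 6 libraries, and CD14 of monocytes had 5 counts in vehicle and 6 after the drug over 3 libraries. Of 21 markers of T and natural killer cells 10 entered the test and 4 rose, with the sum of the list at 22.7 to 27.0 CPM in vehicle and 53.2 to 59.3 CPM after chidamide. LCK, a kinase also found in B-cell lymphoma, made up most of that sum, rising from 19.8 ± 0.903 to 46.9 ± 1.53 CPM, and CD2 and CD8A had 0 counts in all 6 libraries. The neuronal list, 22 of 40 tested, held 12 rises and 1 fall. The epithelial, stromal and endothelial list, 8 of 21 tested, held 4 rises and 0 falls, and the erythroid and megakaryocyte list, 3 of 15 tested, 1 rise and 1 fall. No tested marker of the myeloid and T-cell lists fell. Rises made up 66.7% of tested myeloid and 54.5% of neuronal markers, beside 35.3% of all tested genes. The erythroid share (33.3%) and the T-cell share (4 of 10) lay near that of all genes. At 1 to 3 CPM 56.9% of all tested genes rose, and the marker lists were not matched for level. Many members had too few counts to be tested, and those tested could have entered through their counts after the drug. The last 3 lists summed to 478 to 491, 28.0 to 32.4 and 11.2 to 12.3 CPM in vehicle and to 507 to 519.6, 42.7 to 47.5 and 9.88 to 12.1 CPM after chidamide. The part of these genes in the rises of receptor and adhesion lists was not tested.

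Genes differed by their length as well as by function. Among genes at a mean of 10 to 100 CPM, 60.4% of those shorter than 5 kb fell and 18.9% rose (median log2 change −0.36), whereas 19.8% of those of 200 kb or longer fell and 60.6% rose (0.35). The 5 length classes between lay in order of length except that genes of 5 to 10 kb fell slightly more often than the shortest (62.1%). The level of short minus long genes, under 10 kb against at least 100 kb, was computed in each library as a difference of median log2 ratios to the vehicle mean, each vehicle library being set against the other 2. It was −0.0768, 0.139 and −0.0582 in the vehicle libraries and −0.573, −0.536 and −0.536 in the chidamide libraries, so that the groups do not overlap and vehicle replicate 2 stands above the other vehicle libraries. In the fitted changes the difference was −0.55, and −0.50 without vehicle replicate 2. Lengths are from RefSeq on GRCh38.p14, matched by symbol, and 90.7% of tested genes had one and more than 3 counts in either group. The genes at least 2-fold lower had a median length of 11.3 kb, those at least 2-fold higher 38.2 kb and all tested genes with a length 28.8 kb. How far length goes with the list differences above was not tested.

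**Figure D4:**
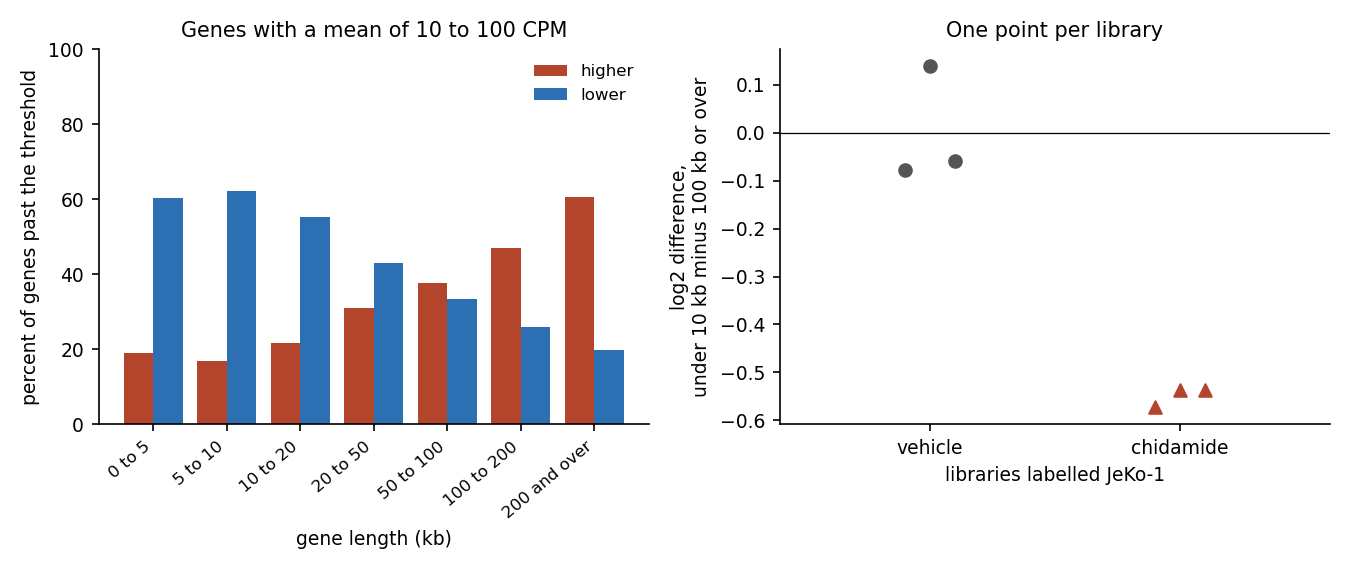
Left, percent of genes at 10 to 100 CPM that rose or fell by class of gene length in kb; right, short minus long genes in each library of the JeKo-1 label on the log2 scale. Falls go from 60.4% in the shortest class to 19.8% in the longest, and the 3 chidamide libraries (−0.573 to −0.536) lie below all vehicle libraries.

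By class of gene, long noncoding RNAs rose more often than they fell, 49.0% of 810 tested rising and 8.4% falling at a median level of 1.90 CPM, where 56.9% of all tested genes at 1 to 3 CPM rose, while protein-coding genes were balanced, 34.4% rising and 33.8% falling. Small nucleolar RNAs, which polyadenylated libraries capture poorly, had a median log2 change of −0.31 over 100 tested, with 5 rising and 13 falling. By chromosome, falls were most frequent on chromosome 16, where 51.4% of 677 tested genes fell and 22.7% rose (median −0.23), and rises on chromosome 4, where 46.9% rose and 20.6% fell (median 0.25). These shares are a description, and gene length and level differ between chromosomes.

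The response under the JeKo-1 label differed from that of Granta-519 in 39.5% of tested genes (5956), with the change higher under the JeKo-1 label in 3015 and lower in 2941, by the interaction contrast of edgeR's quasi-likelihood test with Benjamini-Hochberg adjustment. In Granta-519 itself 70.9% of tested genes changed. The 20 largest rises and 20 largest falls were chosen on the libraries labelled JeKo-1, so changes larger there are favoured by the choice. All 20 rises also rose in Granta-519. The difference passed the test in 16 and did not pass in 4. In 1 of the 16, NRXN2, the rise was the smaller one under the JeKo-1 label (−0.65 ± 0.26, edgeR adjusted p = 0.0456). FMN1 differed by 3.88 ± 0.33 (edgeR adjusted p = 2.25e-14) and TLR7 by 3.58 ± 0.22 (edgeR adjusted p = 1.12e-19), both steeper under the JeKo-1 label. TNFSF15 did not pass, with a difference of 0.15 ± 0.29 (edgeR adjusted p = 0.747), and neither did SRCIN1 (−0.06 ± 0.35, adjusted p = 0.958).

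Of the 20 largest falls 15 also fell in Granta-519, 2 rose there and 3 did not pass in that line, and the difference passed the test in 17. ATAD3B changed by −1.76 ± 0.05 under the JeKo-1 label and by 0.03 in Granta-519, where that change did not pass (adjusted p = 0.603), a difference of −1.79 ± 0.07 (edgeR adjusted p = 1.42e-27). KCTD15 fell under the JeKo-1 label and rose in Granta-519 by 1.45 on the log2 scale, a difference of −3.74 ± 0.23 (edgeR adjusted p = 3.60e-20), and NDRG4, a gene of the nervous system and heart, did the same (−1.59 ± 0.14 and 0.56, difference −2.15 ± 0.19, edgeR adjusted p = 9.88e-14). Among abundant genes, NCL changed by 0.06 and EIF5A by −0.65 in Granta-519, differences of −0.76 ± 0.05 and −0.09 ± 0.05 (edgeR adjusted p = 1.41e-19 and 0.172). Over the lists, nuclear pore genes had a median of −0.30 in Granta-519 beside −0.40, and 31 of 67 passed the test of a difference. For mitochondrial import genes the medians were −0.39 and −0.45 with 21 of 52 differing, and for complement, Fc receptor and FCRL genes 1.04 and 1.74 with 27 of 38 differing. Over all tested genes 39.5% differed, so that the share of mitochondrial import genes is near that of all genes.

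**Figure D5:**
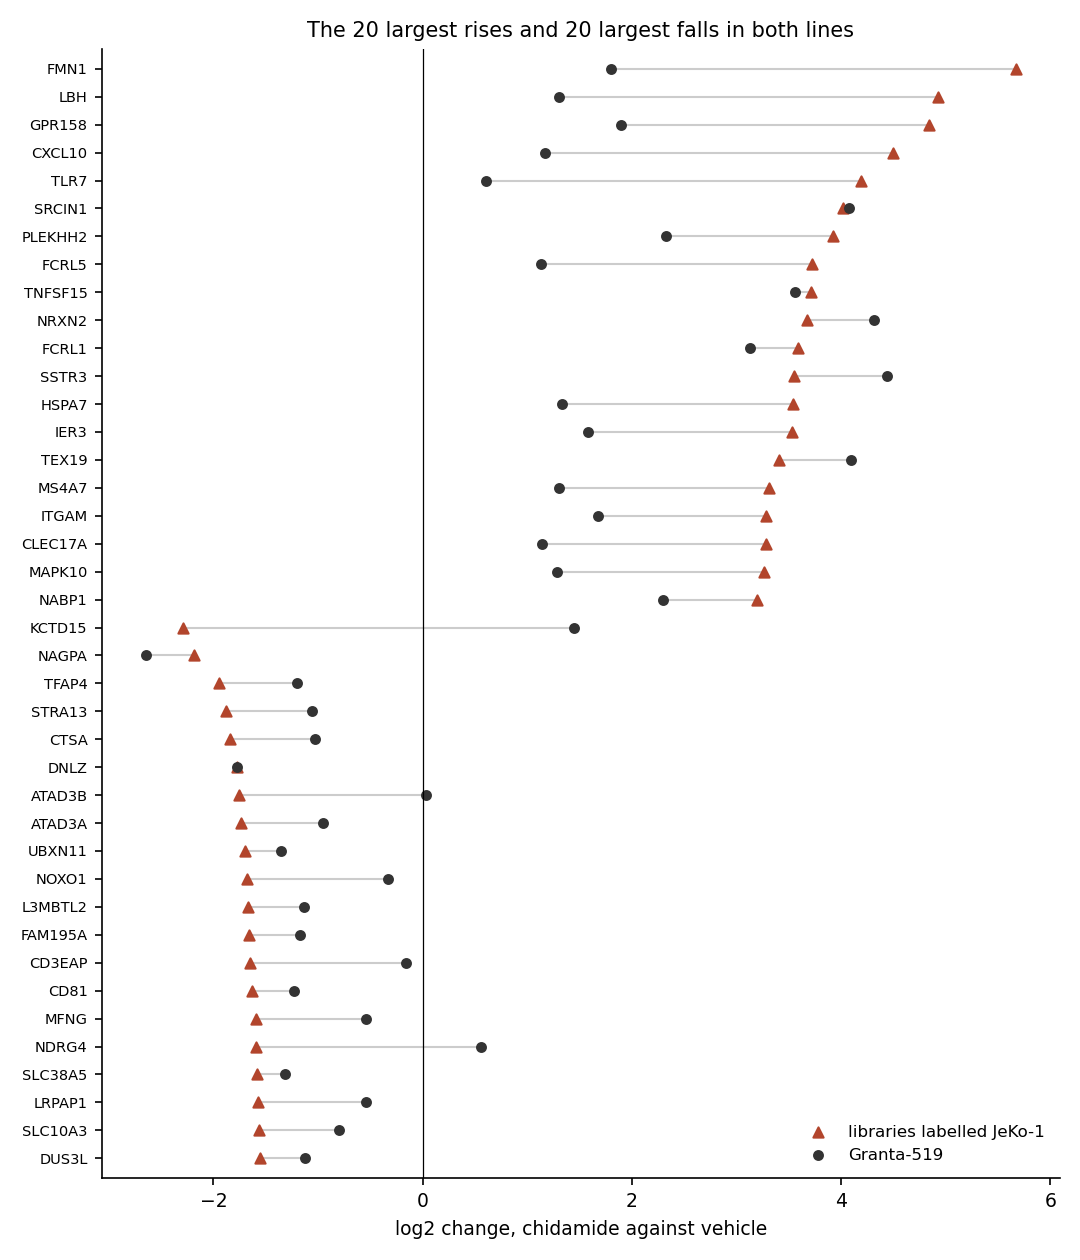
Log2 change after chidamide under the JeKo-1 label (triangles) and in Granta-519 (dots) for the 20 largest rises and 20 largest falls of the libraries labelled JeKo-1. All rises are positive in both lines, while KCTD15 (−2.29) and NDRG4 (−1.59) are positive in Granta-519.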

How the data were processed

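For 12 libraries of polyadenylated RNA, the deposited values are whole-number counts by gene symbol. STAR was the aligner and hg19 the build, per the submitters' processing notes; the counting tool, annotation and strand setting are not given in the sources used here, so overlapping, antisense and near-identical genes may share reads. Another deposited table carries the name TPM but holds a score (each count divided by a constant of its gene and the rounded library total), used only as an alternative input. Groups and replicate numbers came from the titles, and 0 columns of values were left without a sample.

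Of 26364 genes, 4719 had no count in any library. A further 28 date-like names, with 0.26% of counts, stayed in the totals and are not named. The test was that of edgeR 4.0.16 under R 4.3.3: filterByExpr by group, TMM scaling, robust glmQLFit on 4 group means over all 12 libraries (8 residual degrees of freedom, common biological coefficient of variation 0.0422), glmQLFTest, and Benjamini-Hochberg adjustment over 15087 tested genes at 0.05. The SE of a log2 change is its absolute value divided by the square root of F, an approximation. At this spread small changes pass the threshold. The test was also run on simulated counts in which few genes changed, with spread and library sizes taken from the fit. In the data most tested genes changed, so that run does not check the scaling or the spread.

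The genes named are those of one rule. It takes the 20 largest rises and 20 largest falls by log2 change among called genes with a mean of at least 10 CPM in the higher group and no overlap of libraries, the 8 rises and 8 falls of largest CPM difference, up to 4 rises and 4 falls in each of 57 gene lists, a fixed set of growth and deacetylase genes, and all markers of identity and of other cell types. Date-like, uncharacterised and numbered-transcript names were left out, and the text describes a choice; some genes and 1 of the lists are not reported here. The members and lists were chosen with earlier results of these data known. Folds against 0 counts use 3 counts over the group, and ratios carry 95% exact (Clopper-Pearson) counting intervals. Gene lengths are RefSeq, GRCh38.p14, with 97.5% of tested genes matched by symbol, and 71.6% had a RefSeq promoter. Alternatives were other scalings, DESeq2 1.42.0, other filters, the 6 libraries alone, a replicate block, limma 3.58.1 on log2(score + 0.01), and each library left out.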

Additional observations from a re-analysis of the deposited data

Results flagged for a closer look

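In 12 of the 212 tested genes whose values were given or checked here, chidamide moved the gene one way under the JeKo-1 label and the other way in Granta-519, each change passing the test in its own line. The difference of the log2 changes, JeKo-1 label minus Granta-519, was tested by the interaction contrast of edgeR's quasi-likelihood test with Benjamini-Hochberg adjustment. It was −3.74 for KCTD15, a BTB-domain protein, which fell from 71.4 ± 1.13 to 14.6 ± 0.314 CPM under the JeKo-1 label and rose from 1.20 ± 0.259 to 3.26 ± 0.0894 CPM in Granta-519 (edgeR adjusted p = 3.60e-20). NDRG4 differed by −2.15 (edgeR adjusted p = 9.88e-14). Among immune genes, CCL17, a T-cell-attracting chemokine, differed by −1.92, IL10 by −1.66, RASGRP2, an activator of RAP1, by −1.75 and JCHAIN by −0.50. TERT, the catalytic subunit of telomerase, differed by −1.44: it went from 62.6 ± 2.88 to 34.5 ± 1.77 CPM under the JeKo-1 label and from 38.4 ± 2.93 to 57.7 ± 4.94 CPM in Granta-519 (edgeR adjusted p = 5.00e-18). ADCY3, an adenylyl cyclase, differed by −1.09 and PLXNA1, a semaphorin receptor, by −1.06. In 3 genes the change was the more positive one under the JeKo-1 label, PMPCB by 0.30 (edgeR adjusted p = 6.53e-04), AGO4 by 1.64 and CCND1 by 3.11, the last resting on 5 and 44 counts over 3 libraries under that label. The calls of PMPCB and JCHAIN under the JeKo-1 label are lost without 1 vehicle library each, as given with their values.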

How the results depend on the processing

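Numbers of rises and falls stayed within 1.5 times under every alternative, from 4616 to 6536 rises and from 3508 to 4776 falls. The number at least 2-fold lower, 400, was 213 with upper-quartile scaling, 226 with library totals and 213 with limma on the length-scaled score, and the number at least 2-fold higher, 2587, was 1670 with a minimum count of 50, where fewer low genes were tested. The cause of the others was not tested. Rises made up 64.3% of calls with limma on the score, whose median shift was 0.133. Without 1 library at a time, rises numbered 5160 to 5208, falls 4390 to 4602, rises of at least 2-fold 2573 to 2590, falls of that size 353 to 431, and genes differing between the lines 5504 to 5867. No paired design is stated: deviations of same-numbered chidamide and vehicle libraries correlated at 0.0383, 0.0554 and −0.0628. With the replicate block 10143 genes were called (5367 rises, 4776 falls, 2583 and 399 of at least 2-fold), 9964 of them shared with the same direction, and 6234 differed between the lines. Of 212 genes checked, 207 kept their direction and call under every alternative that tested them, and CLECL1, JCHAIN, PRDM1, TMEM173 and PMPCB lost the call under at least 1, with none reversed. Sizes varied more: the fold moved by over 1.5 times in 31 of them with limma on the score, all smaller. Log2 changes there were 4.63 for CSF1R, 3.24 for EPHA4, 3.51 for FPR1, 3.37 for PARP14 and 3.73 for ABCB4. They were 2.50 for SCN8A, 3.12 for WNT10B, 2.00 for PDE2A and 1.32 for RYR2. With DESeq2 the fold moved that far in 13, each at 0 counts in vehicle. Of 114 list counts, 22 moved by over 1.5 times with upper-quartile scaling, 9 of rises (all more) and 13 of falls (all fewer). The short-minus-long difference, tried under these alternatives after seeing the data, ran from −0.59 to −0.50. Depth of 12873642 to 16592694 counts limits genes with few counts, for which only bounds or intervals are given.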

Other observations

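Families sharing a symbol start, chosen after their values were seen and so given as counts only, add to the lists above. Of 28 tested genes with COL names, the symbol start of the collagens of connective tissue, 20 rose and 1 fell. Of 21 histone genes with HIST names 13 rose and 0 fell, counted from polyadenylated transcripts only. Membership was by symbol alone, so a set can hold genes outside the family named. Of 24 myosin heavy chain genes (MYO) 14 rose and 2 fell. In the other direction, of 13 LSM genes, whose proteins form rings on small nuclear RNAs and on decaying mRNA, 12 fell and 0 rose. Of 49 genes for the large mitochondrial ribosomal subunit (MRPL) 36 fell and 4 rose, and of 29 for the small subunit (MRPS) 21 fell and 2 rose. Of 16 proteasome regulatory genes (PSMD) 13 fell and 1 rose, and of 31 RNA polymerase subunit genes (POLR) 25 fell and 2 rose. Under TMM, DESeq2 size factors, upper-quartile scaling and library totals these counts ran from 20 to 21 rises for COL, 13 to 15 for HIST and 14 to 17 for MYO, and from 10 to 12 falls for LSM, 30 to 36 for MRPL, 16 to 21 for MRPS, 10 to 13 for PSMD and 21 to 25 for POLR. Over all tested genes 35.3% rose and 31.1% fell, but shares differ with level. Median levels were 0.66 CPM for COL, 0.58 for MYO and 1.07 for HIST. Below 1 CPM 35.9% of tested genes rose and 0.939% fell, and at 1 to 3 CPM 56.9% and 5.8%. The families with more falls had medians of 66.2 (MRPL) to 125.4 CPM (PSMD). At 30 to 100 CPM 27.3% rose and 51.0% fell, and at 100 to 300 CPM 19.4% and 64.9%.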
